A study of Homo sapiens with 6 samples.

Results

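Histone genes were examined in the line U937T:PLZF-RARa. It descends from U937, an established line of monocyte-like leukaemia cells, and makes PLZF-RARa, a fusion protein of a rare acute promyelocytic leukaemia, once tetracycline is withdrawn. A probe set of the array was taken as a member when its annotation gave exactly 1 symbol and that symbol named a protein-coding histone gene. This gave 54 genes with 78 probe sets, out of 19775 genes named in this way and 54613 probe sets; 3 pseudogenes and 1 antisense RNA that share the names were left out. Each gene was represented by its probe set with the highest mean log2 intensity. The members were split into 44 replication-dependent genes, those of the histone gene clusters and their like-named copies, and 10 variant genes.

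The 3 uninduced samples were kept in medium with tetracycline (0.1 ug/ml). The 3 induced samples were washed and cultured without it for 48 h, and the titles give 48 h for both groups. Both groups are the same line, carry the same construct and were grown with puromycin and G418. The labels name neither the promoter of the construct nor the number of clones, and loss of tetracycline and expression of the fusion cannot be told apart. Replicates are numbered, but nothing says that they were grown apart, so the p-values may reflect technical spread alone.

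Nucleosomes wrap DNA around a core of histones H2A, H2B, H3 and H4, and the linker histone H1 binds where the DNA enters and leaves. Replication-dependent histone genes are transcribed mainly in S phase, and most of their mRNAs end in a stem-loop bound by the protein SLBP in place of a poly(A) tail. Variant histones such as H2A.Z, H2A.X, macroH2A and H3.3 are largely made from polyadenylated mRNAs outside S phase as well and are placed at particular sites such as promoters, breaks or silent chromatin. Some replication-dependent genes, mainly of the H2A and H2B families, are also known to give polyadenylated transcripts, which have been described in differentiating cells. The labelling kit named for these samples starts from the poly(A) tail, so its signal for replication-dependent genes covers polyadenylated forms better than stem-loop forms. The sequences of these genes are so alike that probe sets ending in _x_at or _s_at can bind several of them, and in bulk RNA a larger share of cells in S phase and more RNA per cell cannot be told apart.

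Within a group, pairs of arrays had correlations between 0.9963 and 0.9976. Uninduced replicate 3 stood slightly apart: the 75th percentile of its log2 values was 6.92, against 7.11 to 7.18 on the other 5 arrays. A RARA probe set read 1.87 ± 0.10 in uninduced and 7.58 ± 0.17 in induced samples on the log2 scale (SD, n = 3 each), while another fell from 5.16 ± 0.08 to 3.99 ± 0.04 and a pair did not pass (5.27 to 5.05 and 5.17 to 5.05). The probe set of ZBTB16, the gene of PLZF, fell from 5.25 ± 0.21 to 3.29 ± 0.59. Which of these probe sets read the fusion transcript was not analysed here, so they check the labels only in part. Of 9 myeloid markers 7 were measured, among them LYZ and PRTN3, while MPO and FCGR1A were not, and the summed intensity of the 9 was 56700 to 64100 in uninduced and 20200 to 20500 in induced samples; the part of this in the histone values was not tested. None of 6 T cell, 3 erythroid and 5 epithelial markers exceeded the filter on any array. Of 4 B cell markers 1, PAX5, was measured and did not pass the test, and their summed intensity was 56.5 to 58.3 in uninduced and 60.6 to 65.5 in induced samples. Another, CD79B, exceeded the filter on 2 arrays, too few to be measured. Its mean log2 intensity was 2.81 in uninduced and 4.12 in induced samples.

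Histone transcripts were mostly higher after induction, and the replication-dependent H2B genes had the largest differences among the measured members. A gene was called measured when 3 or more of the 6 arrays had a log2 intensity above 4, which is 16 on the linear scale, and changed when limma's Benjamini-Hochberg adjusted p over all tested probe sets was under 0.05. Of the 54 genes 18 were measured, with 13 rises, 1 fall and 4 that missed the threshold. Over all 9834 measured genes 66.5% changed, 35.8% rose and 30.7% fell, so most transcripts moved in this comparison. The members H1-2 and H3C7 were above the filter in induced samples only and had to differ to be measured at all. With a signal above the filter on all 6 arrays, 15 members remained, of which 10 rose and 1 fell, where 35.2% and 31.1% of 9430 genes did so. Uninduced and induced values were fully separate in 16 of the 18 measured members, as in 74.4% of all measured genes.

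All 6 measured replication-dependent H2B genes rose, by 1.25 to 1.60 on the log2 scale. H2B pairs with H2A to form the dimers that flank the central tetramer of H3 and H4. H2BC12 lay at 9.25, 9.31 and 9.01 in the 3 uninduced samples and at 10.44, 10.44 and 10.43 in the induced ones. Every induced array was above every uninduced one by at least 1.12, and the rise was 2.37-fold (log2 difference 1.25, SE 0.09, limma, adjusted p = 2.56e-05). H2BC9 lay at 6.39, 6.55 and 6.37 and then at 8.06, 8.001 and 8.03, a 3.02-fold rise (adjusted p = 4.20e-06). H2BC6 went from 6.14, 5.92 and 5.72 to 7.31, 7.44 and 7.47, 2.79-fold (adjusted p = 4.00e-05). In these genes the gap between groups was several times the spread within either.

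H2BC5 lay at 6.30, 6.31 and 5.97 in uninduced and at 7.50, 7.65 and 7.59 in induced samples, 2.63-fold higher (adjusted p = 3.87e-05), and its second probe set rose 1.78-fold. H2BC12L, a like-named copy on chromosome 21, lay at 7.53, 7.45 and 7.01 and then at 8.57, 8.75 and 8.66, 2.52-fold higher (adjusted p = 1.81e-04). Uninduced replicate 3 was the lowest array for both genes, and without it both rises remained past the threshold. H2BC4 went from 4.04, 3.61 and 4.02 to 5.70, 4.54 and 5.66 (log2 difference 1.41, SE 0.31, adjusted p = 0.0066); 1 uninduced array was below the filter, so no fold is given, and induced replicate 2 was well under the others. The probe sets of H2BC5, H2BC6, H2BC9 and H2BC12L end in _x_at, so these 4 genes may share signal, while those of H2BC12 and H2BC4 do not carry that mark. Lack of the mark does not show that only 1 gene is read. Another probe set without it is annotated to 5 H2B genes, H2BC4 among them.

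The promoters of the H2B genes that rose are shown because they moved together and because H2B promoters are known for an octamer, the binding motif of POU2F1 (Oct-1). Each sequence holds the 160 bases before the annotated start, from RefSeq on GRCh38.p14, read 5′ to 3′ on the gene's strand. Capitals mark every match, on either strand, to the octamer ATTTGCAT, to CCAAT or to TATAAA. H2BC11, which was not measured (2.81 to 2.89 on all arrays), is shown beside them. The windows are chr6:26123927-26124086 on the minus strand for H2BC4, chr6:26157961-26158120 on the plus strand for H2BC5, chr6:26183601-26183760 on the plus strand for H2BC6, chr6:26251454-26251613 on the plus strand for H2BC9, chr6:27146859-27147018 on the minus strand for H2BC12 and chr6:27132796-27132955 on the minus strand for H2BC11.
H2BC4: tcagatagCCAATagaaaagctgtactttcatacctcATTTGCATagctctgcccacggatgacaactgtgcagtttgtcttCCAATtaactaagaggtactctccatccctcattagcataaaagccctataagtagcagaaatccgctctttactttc
H2BC5: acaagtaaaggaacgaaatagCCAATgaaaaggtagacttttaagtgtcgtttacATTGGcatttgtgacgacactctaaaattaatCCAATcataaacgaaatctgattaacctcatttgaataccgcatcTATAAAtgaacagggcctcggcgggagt
H2BC6: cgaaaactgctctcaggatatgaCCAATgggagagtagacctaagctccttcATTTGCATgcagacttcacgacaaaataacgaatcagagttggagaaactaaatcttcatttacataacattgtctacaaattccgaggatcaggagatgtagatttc
H2BC9: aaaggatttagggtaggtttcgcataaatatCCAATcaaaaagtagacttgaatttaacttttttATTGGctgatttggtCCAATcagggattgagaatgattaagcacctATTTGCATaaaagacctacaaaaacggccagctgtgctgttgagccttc
H2BC12: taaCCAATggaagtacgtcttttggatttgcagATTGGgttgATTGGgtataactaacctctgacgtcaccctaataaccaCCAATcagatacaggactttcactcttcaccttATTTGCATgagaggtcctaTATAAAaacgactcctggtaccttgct
H2BC11: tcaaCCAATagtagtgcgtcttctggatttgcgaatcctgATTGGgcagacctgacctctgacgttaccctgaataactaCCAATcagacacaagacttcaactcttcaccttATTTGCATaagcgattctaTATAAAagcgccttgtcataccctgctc

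In H2BC9, H2BC12 and H2BC11 the octamer lay close to the start, at bases -49 to -42, -46 to -39 and -47 to -40, and in H2BC6 and H2BC4 farther away, at -108 to -101 and -123 to -116. The window of H2BC5 held no exact octamer. Over the whole RefSeq window, 250 bases before to 50 after the start, the octamer or its complement ATGCAAAT was found in 4 of the 5 H2B genes that rose and had an entry, and in 6 of the 8 H2B genes that were not measured. Over all 27305 promoters, 1 per gene, 1.8% held it. Matches to CCAAT were found in 5 of those 5 and 8 of those 8, against 35.7% of all promoters, and matches to TATAAA in 4 of 5 and 7 of 8, against 12% of all. Both sets of H2B genes thus held the letters in most of these whole windows. Within the 160 bases shown, TATAAA was found in H2BC5 and H2BC12 but not in H2BC4, H2BC6 or H2BC9. Entries were found for 51 of the 54 histone genes; H2BC12L, H3C11 and H4C1 had none.

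**Figure D1:**
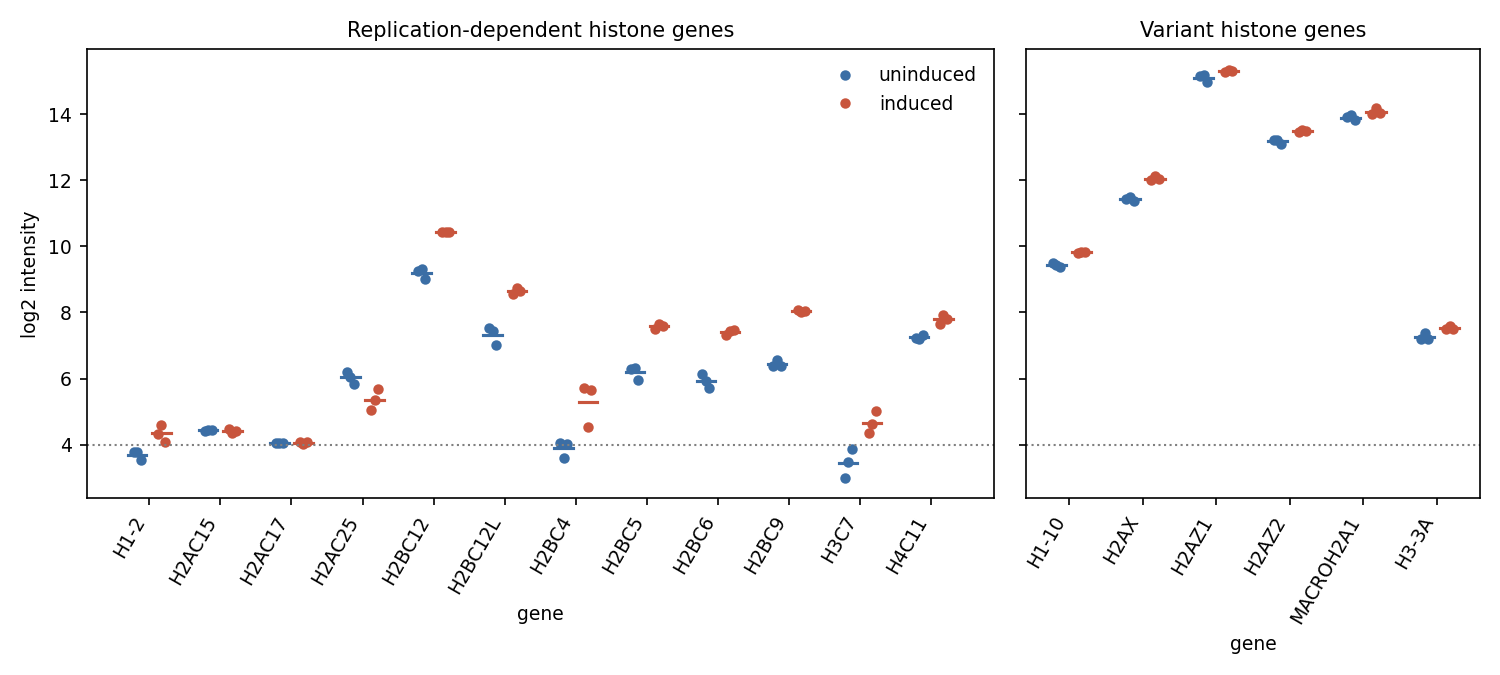
The log2 intensity of the 18 measured histone genes is plotted for each of the 3 uninduced (blue) and 3 induced (red) samples, with a line at each group's mean and a dotted line at the filter of 4. The induced points of all 6 H2B genes lie above the uninduced points, by 1.12 or more for H2BC12; levels of different genes cannot be compared, since each has its own probes.

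The other replication-dependent families were thinly measured. The linker histone gene H1-2, the only one of 6 H1 genes measured, lay at 3.77, 3.77 and 3.55 in uninduced and 4.34, 4.60 and 4.08 in induced samples, at least 1.27-fold higher against the filter (adjusted p = 0.0056). H3C7, 1 of 8 H3 genes, lay at 2.99, 3.47 and 3.88 and then at 4.35, 4.63 and 5.01, at least 1.58-fold higher (adjusted p = 0.0046). The H4 gene H4C11, 1 of 8, lay at 7.21, 7.20 and 7.32 and then at 7.66, 7.92 and 7.80, 1.46-fold higher (adjusted p = 0.0011), on a probe set that ends in _x_at. H1-2 and H3C7 were above the filter on the 3 induced arrays and on no uninduced one, so the filter itself separated their groups; the groups of H4C11 were separate as well, as in 74.4% of all measured genes.

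Of 8 replication-dependent H2A genes 3 were measured with a probe set of their own, and none rose. H2AC25 fell 1.60-fold, from 6.20, 6.05 and 5.84 to 5.03, 5.34 and 5.67 (log2 difference -0.68, SE 0.17, adjusted p = 0.011). The nearest arrays of the 2 groups were only 0.17 apart, and with no filter on low values the fall missed the threshold (adjusted p = 0.059). H2AC15 and H2AC17 lay at 4.43 and 4.04 in uninduced and 4.41 and 4.06 in induced samples, with all 6 arrays within 0.10 and 0.06, and did not pass the test. Both were little above the filter, with a range as narrow as in most genes that were not measured. Their values may be background and do not show that these genes were unchanged.

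Probe sets annotated to several histone genes were read by family only, and those of H2A were much higher after induction. There were 28 of them, of which 18 were measured, 14 rose, 0 fell and 4 did not pass (limma; over all probe sets 34.6% rose and 27.9% fell). Of the 16 that were above the filter on all 6 arrays 12 rose and 4 did not pass. Both counts include 8 probe sets of the variant H3.3 genes, of which 6 rose and 2 did not pass. Several probe sets share the same annotation, so these are not counts of separate genes. A measured one annotated to 11 genes of H3 and H2A rose by 0.38 on the log2 scale (limma, adjusted p = 0.0061). Of the 5 H2A probe sets 3 were measured, and they rose more than any single-gene member. A first one, annotated to 2 H2A genes, went from 6.26, 6.04 and 6.26 to 9.12, 9.27 and 9.09, a 7.83-fold rise (adjusted p = 9.04e-07). A second, annotated to the same number, went from 7.74, 7.74 and 7.75 to 10.37, 10.80 and 10.53, or 7.08-fold (adjusted p = 2.61e-06), and the last, annotated to 6, from 4.02, 4.08 and 4.08 to 6.52, 6.50 and 6.91, or 5.998-fold (adjusted p = 4.21e-06). The uninduced values of the last were barely above the filter, and H2AC15 and H2AC17 are among its 6 genes.

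The H2B probe sets of this kind rose with the single-gene ones. The 3 that were measured are each annotated to 5 H2B genes. The brightest was 3.18-fold higher (adjusted p = 4.49e-06). Another was 5.37-fold higher (adjusted p = 2.05e-04), from uninduced values of 4.08, 4.70 and 4.15 that were little above the filter. The last differed by 0.95 on the log2 scale (adjusted p = 1.88e-04), with 5 of 6 arrays above the filter. For H4, 2 of the 3 measured probe sets did not pass. A bright one, annotated to 14 H4 genes, lay at 13.87, 13.88 and 13.73 and then at 13.89, 14.02 and 13.94, a difference of 0.12 that did not pass (adjusted p = 0.179), and another of 14 genes differed by 0.18 (adjusted p = 0.068). A dim one of the same annotation went from 2.99, 2.72 and 2.90 to 5.19, 5.76 and 4.51, at least 2.23-fold higher (adjusted p = 4.24e-04), but it was above the filter on the induced arrays only and had to differ to be measured. H4C11 is among the 14 genes of all 3, and which H4 transcripts each of these reads was not analysed here.

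**Figure D2:**
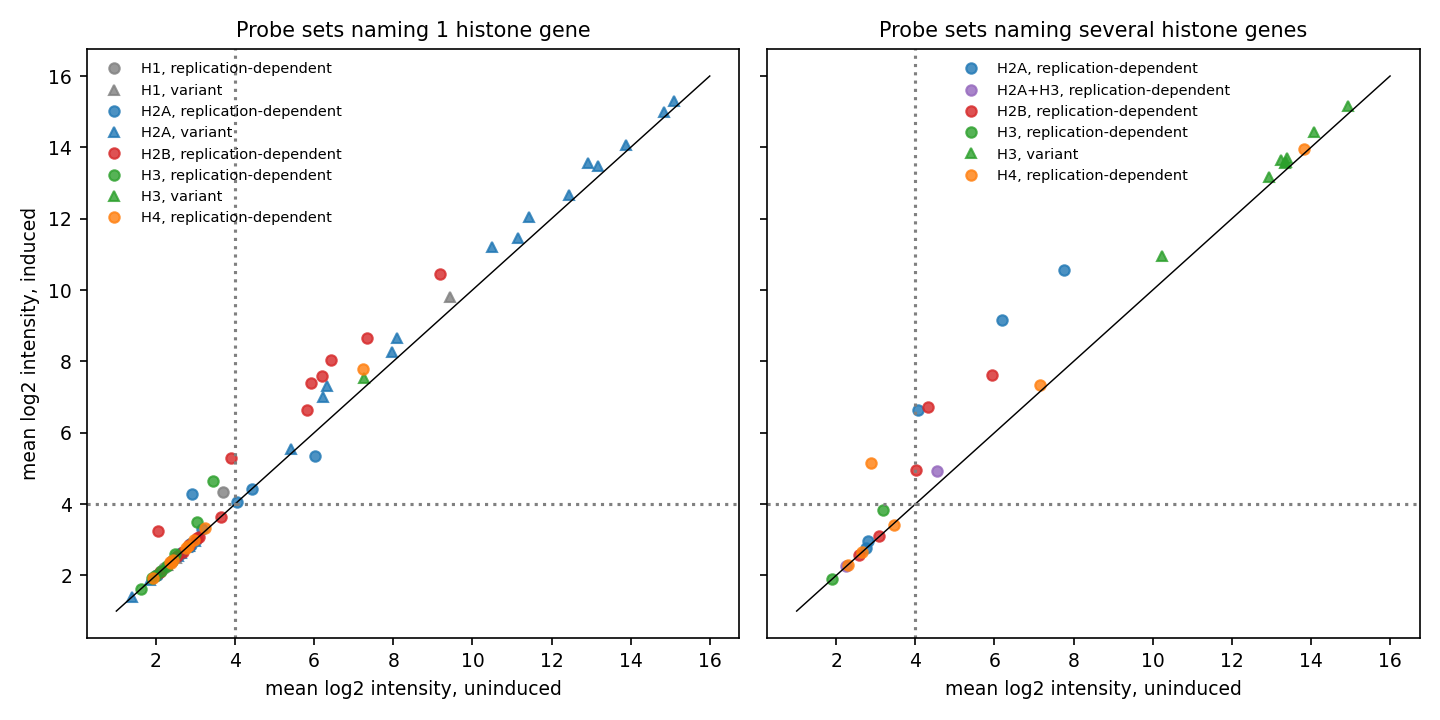
Each point is a probe set, placed by its mean log2 intensity in uninduced (x axis) and induced (y axis) samples, n = 3 each; the left panel holds the 78 probe sets naming 1 histone gene and the right panel the 28 naming several, coloured by family, with circles for replication-dependent and triangles for variant histones. The line marks equal values and the dotted lines the filter of 4; In the left panel the 6 measured H2B genes stand above the line, H2AC25 stands below it and H2AC15 and H2AC17 lie on it; in the right panel the 3 measured H2A probe sets stand above it.

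The remaining 32 replication-dependent genes were not measured. In 26 of them all 6 arrays lay within 0.2 of each other. The exceptions included genes that were higher in every induced array but stayed near or below the filter. H2AC6 went from 3.22, 2.87 and 2.67 to 4.05, 4.89 and 3.91, H2BC21 from 2.06, 2.03 and 2.07 to 3.10, 3.33 and 3.28, and H3C2 from 2.91, 2.998 and 3.18 to 3.71, 3.36 and 3.47. These 3 passed only in the fit with no filter (adjusted p = 0.029, 1.52e-04 and 0.037), and no fold is given for them.

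Among the variant histone genes 4 rose. Of 10 variant genes 6 were measured, all above the filter on all 6 arrays; 4 rose, 0 fell and 2 did not pass, against 35.8% of all measured genes rising. The groups were fully separate in all 6, as in 74.4% of all measured genes. Their median log2 difference was 0.29, against 1.23 for the 12 measured replication-dependent genes and 0.02 for all 9834 genes; for the 9 replication-dependent genes above the filter on all arrays it was 1.25. On probe sets with neither an _x_at nor an _s_at suffix the medians were 0.64 for 7 replication-dependent and 0.55 for 3 variant genes. The gap between the medians was nearly gone there, but fewer genes and partly other probe sets were compared. The 7 included H2AC15 and H2AC17, whose values may be background, and the 3 did not include H2AX, H1-10 or H3-3A. The difference between the classes was not tested.

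H2AX, the variant phosphorylated at DNA breaks, rose most among them. It lay at 11.43, 11.48 and 11.37 in uninduced and 12.003, 12.13 and 12.02 in induced samples, 1.54-fold higher (log2 difference 0.62, SE 0.07, adjusted p = 1.72e-04). Its other 2 measured probe sets rose as well, by 0.76 and 0.30. The linker variant H1-10 lay at 9.48, 9.42 and 9.38 and then at 9.79, 9.83 and 9.81, 1.30-fold higher (adjusted p = 0.0011). Both genes had narrow groups that were clearly apart.

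H2AZ1 and H2AZ2 encode the 2 forms of H2A.Z, a variant of nucleosomes at promoters. H2AZ2 lay at 13.23, 13.22 and 13.11 and then at 13.45, 13.52 and 13.47, 1.23-fold higher (adjusted p = 0.0055). All 4 of its probe sets rose, by 0.30 to 0.70 on the log2 scale. H2AZ1 lay at 15.15, 15.17 and 14.98 and then at 15.26, 15.34 and 15.29, a difference of 0.20 (SE 0.07) that missed the threshold (adjusted p = 0.0504). Uninduced replicate 3 was the lowest array here too, and over the alternatives the adjusted p of H2AZ1 ranged from 0.015 to 0.131. It passed after quantile normalization (0.015), with trended and robust eBayes (0.023), array weights (0.042), a log2 filter of 6 (0.045) and the mean over probe sets (0.047).

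For H3.3, the replication-independent H3, the single-gene probe set of H3-3A lay at 7.20, 7.37 and 7.19 and then at 7.51, 7.59 and 7.49, 1.21-fold higher (adjusted p = 0.014), and without uninduced replicate 1 it missed the threshold (adjusted p = 0.051). Of 8 probe sets annotated to both H3.3 genes, together with a pseudogene or a microRNA, 6 rose and 2 did not pass, with differences of 0.22 to 0.72. MACROH2A1, whose product carries a large extra domain and marks silent chromatin, lay at 13.90, 13.96 and 13.81 and then at 14.00, 14.17 and 14.04, a difference of 0.18 that did not pass (adjusted p = 0.078). Of its 5 measured probe sets 2 rose, by 0.55 and 0.97, and 3 did not pass; the mean over them was 0.41 higher (adjusted p = 0.0031). Which splice form each probe set reads was not analysed here.

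The variants H2AJ, MACROH2A2, H1-7 and H1-8 were not measured, with values of 2.48 to 2.89 on all arrays. For contrast with the H2B promoters, the 160 bases before the start of H2AX (chr11:119095466-119095625, minus strand) and H2AZ2 (chr7:44848088-44848247, minus strand) are given with the same marks.
H2AX: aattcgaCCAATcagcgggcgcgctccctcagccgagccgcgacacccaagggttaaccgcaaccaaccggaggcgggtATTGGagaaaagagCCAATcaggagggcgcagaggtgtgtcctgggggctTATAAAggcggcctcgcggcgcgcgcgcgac
H2AZ2: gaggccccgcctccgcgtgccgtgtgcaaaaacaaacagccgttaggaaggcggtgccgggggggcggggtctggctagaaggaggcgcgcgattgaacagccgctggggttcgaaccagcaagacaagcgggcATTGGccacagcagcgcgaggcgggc
H2AX held 3 CCAAT matches and a TATAAA at bases -31 to -26, and H2AZ2 a single CCAAT match on the other strand. None of the 10 variant promoters held the octamer, against 16 of 41 replication-dependent ones, all of them H2A (6 of 8) or H2B (10 of 13) genes.

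**Figure D3:**
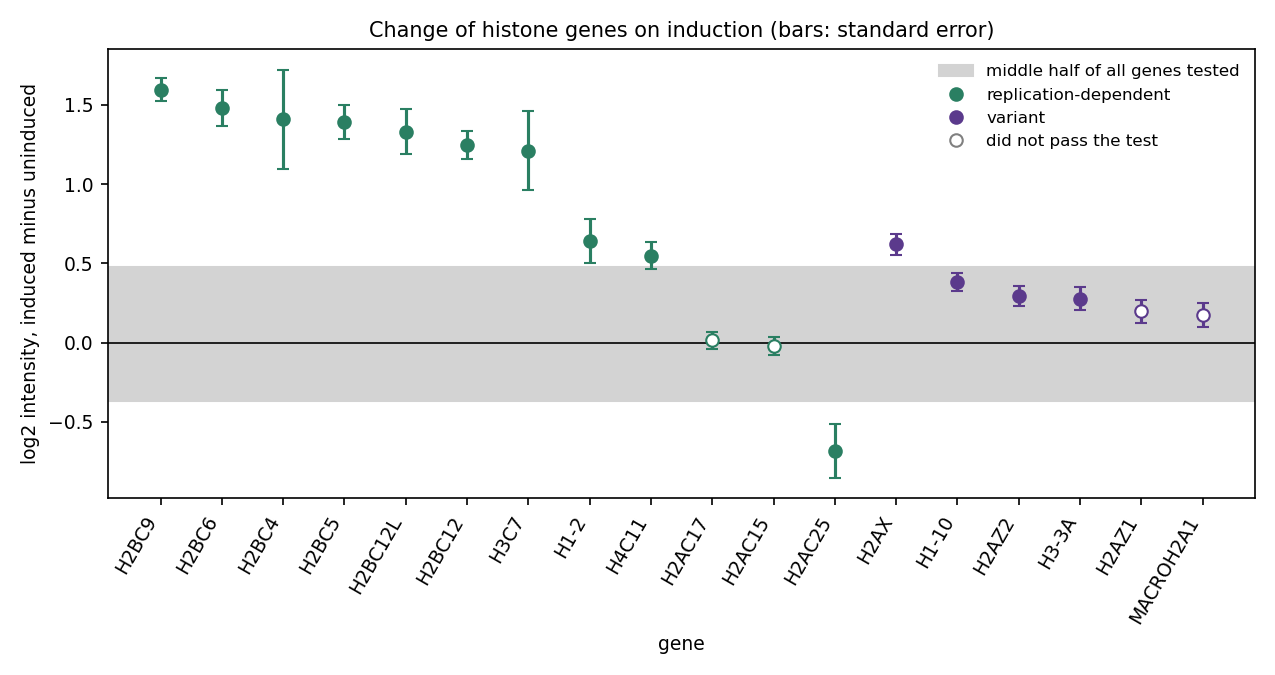
The log2 difference, induced minus uninduced, of the 18 measured histone genes is plotted with its standard error (limma, n = 3 each), replication-dependent genes in green and variants in purple; open points did not pass the test and the grey band runs from the lower to the upper quartile of all 9834 measured genes. H2BC9 (1.60) to H3C7 (1.21), H1-2 (0.64) and H4C11 (0.55) stand above the band, H2AC25 (-0.68) below it, and 5 of the 6 variants lie within it.

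Other genes of histone supply went both ways, as did all measured genes, of which 35.8% rose and 30.7% fell. Of 27 measured genes of histone gene transcription and mRNA processing 6 rose, 14 fell and 7 did not pass, with a median of -0.20. CCNE2, a cyclin whose kinase complex phosphorylates NPAT at histone loci, rose from 10.28 ± 0.03 to 12.11 ± 0.04 (SD, n = 3 each), 3.55-fold (adjusted p = 1.14e-06). CASP8AP2 (FLASH), which acts with NPAT in the histone locus body, was 1.87-fold and NPAT itself, the coactivator of histone gene transcription, 1.53-fold higher. The cap-binding subunit NCBP2 (1.42-fold) and the Sm protein SNRPF (1.40-fold) were lower. SLBP, which binds the stem-loop, rose 1.14-fold (adjusted p = 0.035), but missed the threshold after median centring (0.066), with the replicate number as a block (0.080) and without any 1 of 5 arrays, the exception being induced replicate 1. Without uninduced replicate 2 the falls in this list numbered 9.

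Of 18 measured genes of histone mRNA decay 5 rose and 7 fell, with a median of -0.13. Over all measured genes 35.8% rose and 30.7% fell. The exonuclease XRN1 was 2.51-fold higher, while the exosome subunit EXOSC4 (3.19-fold), the checkpoint kinase ATR (1.99-fold) and LSM6, a subunit of the ring that binds mRNA ends (1.78-fold), were lower. Of 42 measured chaperones and deposition factors 10 rose and 10 fell, with a median of -0.02. IPO4, an importin of H3 and H4, fell from 9.79 ± 0.15 to 7.43 ± 0.07 (SD, n = 3 each), 5.12-fold (adjusted p = 2.60e-06), and the ATPases RUVBL1 (2.81-fold) and RUVBL2 (2.06-fold) of the complexes that exchange H2A.Z were lower. TSPYL1, of the nucleosome assembly protein family, was 1.79-fold and HJURP, the chaperone of the centromeric H3 variant, 1.69-fold higher.

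The CAF-1 subunits CHAF1A and CHAF1B, which deposit new H3 and H4 behind the fork, differed by -3.18e-04 and -0.06 and did not pass (adjusted p = 0.998 and 0.483). ASF1B, which hands H3 and H4 to CAF-1, rose 1.27-fold (adjusted p = 0.021), and missed the threshold with no filter (0.069) and without induced replicate 2 (0.069) or 3 (0.054). HIRA, the depositor of H3.3, and the centromeric CENPA differed by -0.20 and 0.25 and did not pass (adjusted p = 0.055 and 0.094); HIRA passed in 8 of the alternatives, among them quantile normalization (0.012), and CENPA without uninduced replicate 1 (0.046).

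DNA synthesis genes, whose activity the stem-loop histone mRNAs normally follow, were mixed as well. Of 45 measured 10 rose, 15 fell and 20 did not pass, with a median of -0.06. The lists overlap. SLBP, a rise, is counted both here and among the processing genes, and MCM2, a fall, both here and among the chaperones. All measured genes were mixed too, with 35.8% rising and 30.7% falling. The ribonucleotide reductase subunit RRM2 rose 1.92-fold (adjusted p = 3.0e-05) and thymidine kinase TK1 1.66-fold, while the polymerase subunit POLD2 fell 2.02-fold (adjusted p = 2.92e-05) and the helicase subunit MCM2 1.46-fold. PCNA, the sliding clamp, lay at 13.70 ± 0.02 in uninduced and 13.72 ± 0.04 in induced samples (adjusted p = 0.772). The part of DNA synthesis in the histone values was not tested.

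**Figure D4:**
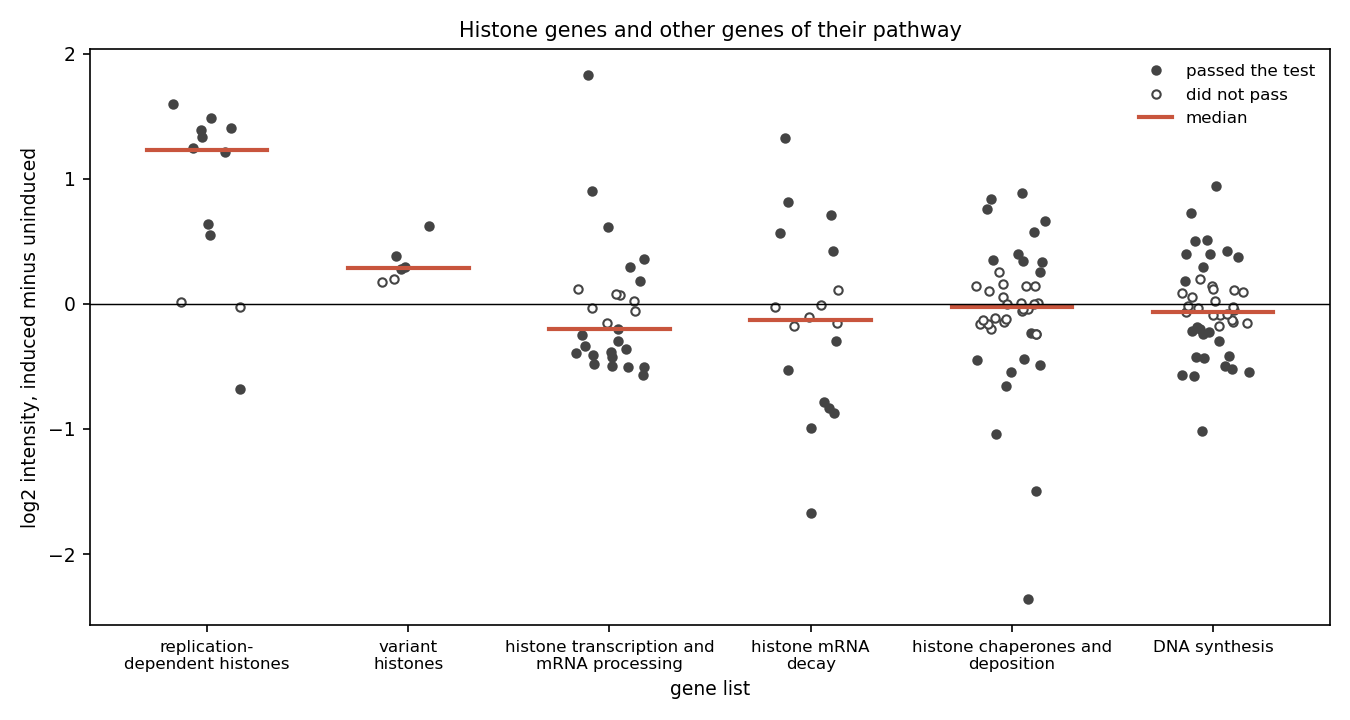
The log2 difference, induced minus uninduced, is shown for each measured gene of the 2 histone classes and the 4 lists of other genes (filled points passed the test), with a red line at each median. Medians stand at 1.23 and 0.29 for replication-dependent and variant histones and at -0.20, -0.13, -0.02 and -0.06 for the lists, in the order drawn.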

How the data were processed

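The deposited table holds 1 intensity per probe set and sample on Affymetrix HG-U133 Plus 2.0 arrays, on a linear scale, which the authors made with GCRMA (named in the submitters' processing notes), a method that corrects background by probe sequence, normalizes and summarises. No label states its version or whether all arrays were run jointly. RNA was biotin labelled with the MessageAmp II kit, per the labels' protocols. Values under 1 (6 in all) were raised to 1 and log2 was taken; 62 control probe sets were left out. In GEO's platform annotation 41091 probe sets carried 1 symbol, 1801 carried several and 11721 carried none; 0 symbols needed an update through the NCBI gene table. The groups (3 against 3, from the titles) were compared two-sided, without covariates, by lmFit and eBayes of limma 3.58.1 (R 4.3.3), tested on simulated data, with Benjamini-Hochberg adjustment over the 20552 probe sets above the filter. Log2 differences were turned into folds. Against a group with no array above the filter the fold is a lower bound, taken from a log2 value of 4; no fold is given when some arrays of a group were above it and some not. The number of arrays limits the precision.

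The members, the class split, the 4 lists of other genes and the markers were chosen with earlier results of these data known. Named with values were every measured variant, every replication-dependent gene that passed (up to 24) and the 4 with the highest mean, the 4 called genes with the smallest adjusted p of each list, and SLBP, NPAT, CHAF1A, CHAF1B, ASF1B, HIRA, HJURP, CENPA and PCNA; H2AC15, H2AC17, H2AC6, H2BC21, H3C2, the probe sets with several symbols and the promoters shown were chosen after their values were seen. No set test was run. The fits were repeated unfiltered and with a log2 filter of 6, with quantile normalization or median centring, with array weights or trended and robust eBayes, blocked by replicate number, on means over probe sets, on those with neither an _x_at nor an _s_at suffix, and with each array left out. Python 3.11.15 and matplotlib 3.10.9 drew the figures.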

Additional observations from a re-analysis of the deposited data

How the results depend on the processing

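The 14 histone genes past the threshold kept their direction under every alternative in which they were tested. All 14 remained past it after quantile normalization, median centring, a trended and robust eBayes and array weights, with the mean over probe sets and without any 1 of 5 arrays; without uninduced replicate 1 H3-3A was lost, and with no filter H2AC25. Over the 16 named histone genes 218 of 228 alternative values kept their side of the threshold, 2 lost it and 8 gained it (H2AZ1 and MACROH2A1).

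Restricting to probe sets not ending in _x_at or _s_at both dropped genes and put other probe sets in place of the main ones, and the share of each was not tested: 4 replication-dependent genes rose (median 0.64), 2 variants rose (median 0.55), 4 decay genes fell, 5 chaperone genes fell (median 0.12), and 6 DNA synthesis genes rose (median -0.13). Replication-dependent genes that fell numbered 0 with no filter, 0 with a filter at 6 (median 1.36, as fewer genes were tested) and 2 after quantile normalization (median 1.16). The variant median was 0.40 with the mean over probe sets, the decay median -0.21 after quantile normalization, and 16 chaperone genes fell with array weights; the cause was not tested.

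Leaving out single arrays gave a replication-dependent median of 1.13 to 1.25, 9 to 14 falls among processing genes and a chaperone median of -0.0914 to 0.0088. The near-zero CHAF1A changed sign after median centring (0.0015) and without single arrays (-0.0713 to 0.0620), and PCNA after quantile normalization (-0.0030). The labels do not say whether the replicate numbers pair the samples. Deviations of same-numbered samples from their group means correlated at -0.173, 4.61e-04 and 0.18, too few values to settle it. Blocked by replicate number, 9 replication-dependent genes rose and 1 fell, and 4 variants rose, as without it; the processing list had 5 rises and 12 falls. Dim signal limits the reading of the 36 histone genes that were not measured. After quantile normalization 35% of all measured genes rose and 40.5% fell.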
